A study of Homo sapiens with 8 samples.

Results

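HPGD encodes 15-hydroxyprostaglandin dehydrogenase, the enzyme that begins the breakdown of prostaglandin E2, and it is described here together with 9 other genes of the prostaglandin and lipoxygenase pathways, PTGS1, PTGS2, PTGES, PTGER2, PTGER4, SLCO2A1, PTGR1, ALOX15 and ALOX5. The members were found in the deposited array table by their gene symbols, and each of the 10 genes had 1 feature, out of 29141 tested features with 20219 distinct symbols. HPGD was selected on its measured values on these same arrays, so its levels are given as a description with no test, while the other 9 genes were chosen for their place in the pathway with earlier results of these data known, and their tests were taken from a fit over all features.

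The cells were MIV-Luc cells, a luciferase-expressing derivative of MCF10CA1a (MIV), a metastatic basal-like breast cancer line of the MCF10A progression series. They carried either the scrambled hairpin construct pLKO-shSCR (shSCR) or a hairpin construct against IL13Rα2 (shIL13Rα2#2), and each line was mock-treated or exposed for 16 h to IL-13 at 20 ng/ml, which makes 4 groups of 2 arrays and 8 arrays in all. Both lines were pools of lentivirus-transduced, selected cells, the knockdown rests on 1 hairpin, and all groups were grown in the same medium with insulin, epidermal growth factor, cholera toxin and hydrocortisone. The study's methods describe the arrays of a group as biological replicates, and values are given in the column order of the table, which does not pair arrays between groups. In bulk RNA of this kind, fewer cells of a type and less RNA per cell cannot be told apart.

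Prostaglandins are made when phospholipases free arachidonic acid from membranes, the cyclooxygenases PTGS1 and PTGS2 turn it into prostaglandin H2, and terminal synthases such as PTGES make the individual products. Prostaglandin E2 acts outside the cell on receptors that include PTGER2 and PTGER4, and it is removed by uptake through SLCO2A1 and oxidation by HPGD, after which PTGR1 reduces the oxidised product. Lipoxygenases such as ALOX15 and ALOX5 take the same fatty acid to hydroxy acids and leukotrienes, and ALOX15 is known for its induction by IL-13 in monocytes and airway epithelium.

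IL13RA2, the target of the hairpin, was at log2 8.07 and 8.09 in mock-treated shSCR cells and at 6.52 and 6.34 in mock-treated knockdown cells, a log2 difference of -1.65 (limma adjusted p = 0.0105). With IL-13 it was at 9.36 and 9.33 in shSCR cells and at 8.23 and 8.15 in knockdown cells, so the knockdown cells with IL-13 held about as much receptor mRNA as mock-treated shSCR cells (difference 0.11, 95% confidence interval -0.14 to 0.36). SERPINB3 and CCL26, taken as a reference for the IL-13 response, rose over both constructs by 3.58 (adjusted p = 4.5e-06) and 1.27 (adjusted p = 0.00320) on the log2 scale. Array medians lay between 5.02 and 5.06, and correlations between arrays of a group over all features were 0.992 to 0.993. Between arrays of different groups they were 0.988 to 0.993, so these ranges overlapped. The 7 epithelial markers were measured at mean log2 values of 6.76 to 11.99.

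The promoter sequences of the cyclooxygenase PTGS2 and of HPGD are shown because these enzymes stand at opposite ends of the life of a prostaglandin. RefSeq (GRCh38.p14) held windows for 7 of the 10 genes, 9 windows in all, and none was matched for SLCO2A1, ALOX15 or ALOX5. Each run below is the 250 bases before a transcription start that is the outermost of its gene, 5′ to 3′ on the strand of the gene, and capitals mark a TATAAA or CCAAT match on either strand. HPGD lies on chromosome 4 from 174490175 to 174522893 on the minus strand, and its window is chr4:174522894-174523143. PTGS2 lies on chromosome 1 from 186671791 to 186680423 on the minus strand, and its window is chr1:186680424-186680673.
HPGD: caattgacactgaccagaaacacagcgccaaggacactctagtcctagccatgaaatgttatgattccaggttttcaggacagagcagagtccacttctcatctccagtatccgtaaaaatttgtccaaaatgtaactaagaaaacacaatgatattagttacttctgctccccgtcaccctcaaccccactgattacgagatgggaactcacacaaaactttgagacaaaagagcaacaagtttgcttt
PTGS2: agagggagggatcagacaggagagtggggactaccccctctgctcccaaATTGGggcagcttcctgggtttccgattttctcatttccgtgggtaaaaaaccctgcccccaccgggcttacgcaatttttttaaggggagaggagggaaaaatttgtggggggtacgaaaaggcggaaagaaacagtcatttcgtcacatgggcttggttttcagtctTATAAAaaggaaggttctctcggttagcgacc

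The PTGS2 window held TATAAA starting 32 bases before the start and CCAAT on the opposite strand at 201 bases, and its GC content was 50.4%. The HPGD window held neither motif and had a GC content of 42%. HPGD has another listed start further into the gene, whose window (chr4:174522489-174522738) had a GC content of 70.8% and a CCAAT 236 bases before that start. Among 35116 windows of the same length, 10.7% held TATAAA and 32% held CCAAT on either strand. The letters TTCNNNNGAA and TTCNNNGAA, the spacings known for STAT6 and other STAT proteins, were looked for on both strands and found in 5.38% and 6.57% of all windows, and in none of the 9 windows of the members. The deposited table has 1 gene-level feature for HPGD, so transcripts from its 2 starts were not separated. The labels name an exon array, whose exon-level values were not used here, and whether the table's features are those of that array type was not settled.

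HPGD mRNA was higher in knockdown cells than in shSCR cells, and within each construct it was lower with IL-13. In shSCR cells it was at log2 6.94 and 6.86 without IL-13 (mean 6.90 ± 0.06, SD, n = 2) and at 5.96 and 6.10 with IL-13 (6.03 ± 0.09, SD, n = 2). In knockdown cells it was at 8.05 and 7.95 without IL-13 (mean 7.998 ± 0.07, SD, n = 2) and at 7.38 and 7.20 with IL-13 (7.29 ± 0.12, SD, n = 2). No array of one group overlapped another group, and the order of the groups from low to high was shSCR with IL-13, shSCR without, knockdown with IL-13 and knockdown without. The steps between neighbours in that order were 0.87, 0.39 and 0.71 on the log2 scale, against a pooled SD between arrays of a group of 0.09.

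The IL-13 difference of HPGD had the same sign in both constructs. With IL-13 the level was 1.83-fold lower in shSCR cells (log2 difference -0.87) and 1.63-fold lower in knockdown cells (-0.71), and the difference between these differences was 0.16. With 1 array left out that last value ran from 0.076 (without array A of knockdown cells with IL-13) to 0.25 (without array B of the same group), where A and B are the first and second column of a group, and its size was therefore not settled. It was 0.097 without array A of shSCR cells with IL-13. The knockdown difference likewise had the same sign with and without the cytokine, 2.14-fold higher without IL-13 (1.10) and 2.40-fold higher with it (1.26). Knockdown cells with IL-13 stood 1.31-fold above mock-treated shSCR cells (0.39), so the 2 differences had opposite signs and the knockdown difference was the greater. As a description of where HPGD stood, 14 of the 29141 features (0.0480%) had an absolute knockdown difference, averaged over both treatments, at least as large as its 1.18. For IL-13 averaged over both constructs 68 features (0.233%) reached the size of its -0.79, and 71 features spanned as wide a range over the 8 arrays as its 2.09.

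**Figure D1:**
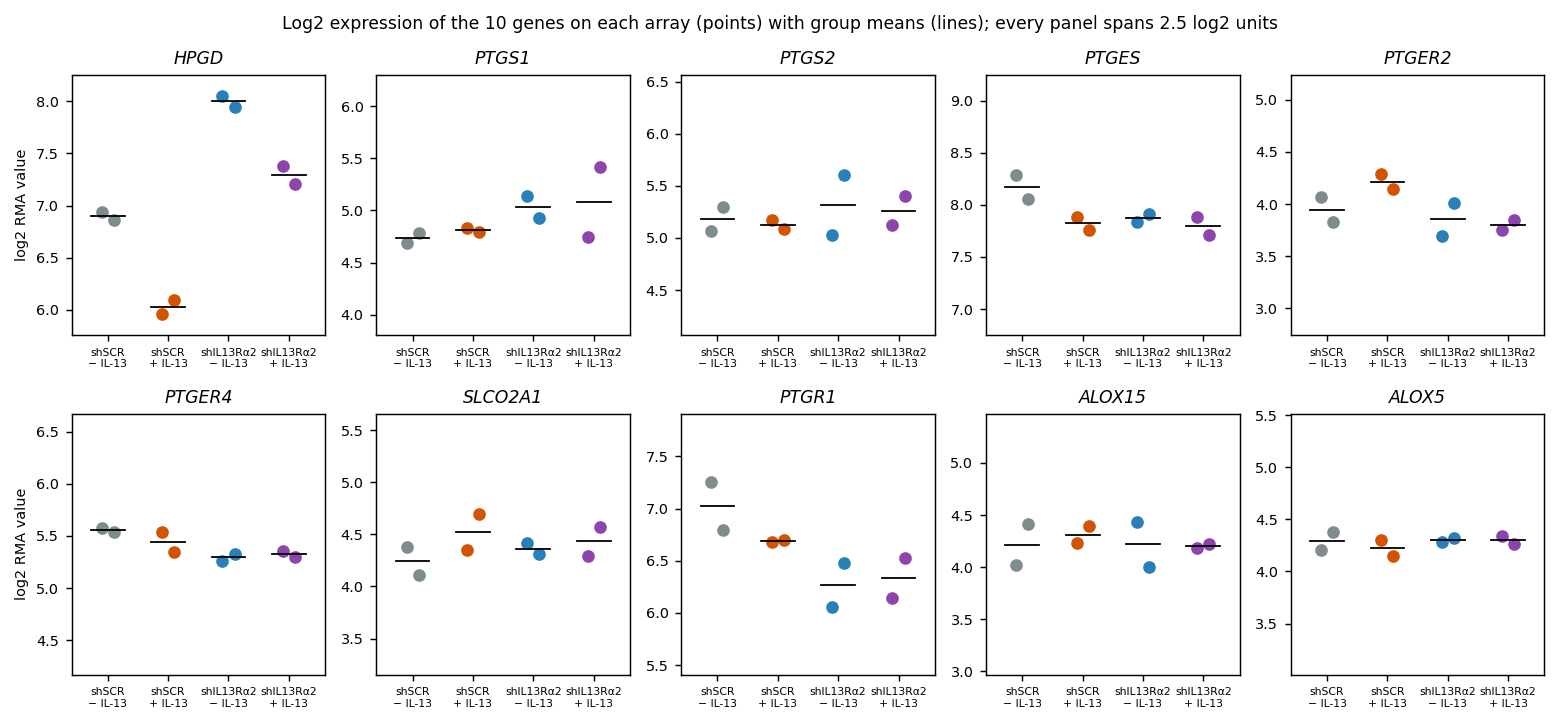
Log2 RMA value (vertical axis) of each of the 10 genes on every array, with points for arrays, lines for group means, and the 4 groups of construct and treatment along the horizontal axis. All panels span the same number of log2 units, and the 4 groups are apart from each other for HPGD, from 5.96 to 8.05, while the largest range among the other genes is 1.196 for PTGR1.

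None of the other 9 genes was called in any comparison. By limma at an adjusted p under 0.05 and a fold above 2, 0 of the 9 were called for IL-13 averaged over both constructs, where 0.0927% of all features were, and 0 of 9 for the knockdown averaged over both treatments, where 0.0755% were. At an unadjusted limma p under 0.05 the counts were 1 of 9 for IL-13 (PTGES) and 3 of 9 for the knockdown (PTGER2, PTGER4 and PTGR1), all with lower values, against 8.73% and 11.3% of all features. With backgrounds this small, 0 called of 9 does not set these genes apart from the rest of the array. Their median log2 difference was -0.036 for IL-13 and -0.052 for the knockdown, beside 0.0084 and -0.0060 over all features. Their ranges over the 8 arrays ran from 0.23 to 1.196, and 8 of the 9 were under 1.

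The cyclooxygenases differed little between groups. PTGS1, the constitutive enzyme, was at log2 4.69 and 4.79 in mock-treated shSCR cells, 4.83 and 4.79 with IL-13, 5.14 and 4.93 in mock-treated knockdown cells, and 4.74 and 5.41 in knockdown cells with IL-13. The last group held both a low and the highest array, and its SD of 0.47 was the widest of the 4. The knockdown difference over both treatments was 0.28 (95% confidence interval -0.05 to 0.61, adjusted p = 0.520). PTGS2, the inducible enzyme, was at 5.07 and 5.29, 5.17 and 5.09, 5.03 and 5.61, and 5.12 and 5.40 in the same order of groups and all groups overlapped. The IL-13 difference of PTGS2 was -0.05 (-0.38 to 0.27) and its knockdown difference 0.13 (-0.19 to 0.46), so a 2-fold difference lay outside both intervals.

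PTGES, the inducible prostaglandin E2 synthase, was at its highest in mock-treated shSCR cells. It was at log2 8.29 and 8.06 there, at 7.88 and 7.76 in shSCR cells with IL-13, at 7.84 and 7.91 in mock-treated knockdown cells, and at 7.88 and 7.71 in knockdown cells with IL-13. Both arrays of the first group lay above all 6 others, and those 6 overlapped. The IL-13 difference was -0.35 in shSCR cells (95% confidence interval -0.64 to -0.06, adjusted p = 0.694) and -0.08 in knockdown cells (-0.37 to 0.21), and the difference of these did not pass (0.27, adjusted p = 0.989). The knockdown difference without IL-13 was -0.30 (-0.59 to -0.01, adjusted p = 0.521).

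Of the prostaglandin E2 receptors, which both raise cyclic AMP, PTGER4 was at log2 5.58 and 5.54 in mock-treated shSCR cells, 5.54 and 5.35 with IL-13, 5.26 and 5.33 in mock-treated knockdown cells, and 5.36 and 5.30 in knockdown cells with IL-13. The 2 mock-treated groups did not overlap, and their difference was -0.26 (95% confidence interval -0.52 to -0.01, adjusted p = 0.521). PTGER2 was at 4.06 and 3.83, 4.29 and 4.14, 3.70 and 4.01, and 3.75 and 3.84 in the same order. Among IL-13-treated cells its knockdown arrays lay below the shSCR arrays (-0.42, -0.75 to -0.08, adjusted p = 0.613). PTGER2 was the only member among the dimmest 30% of features, below a mean log2 value of 4.01.

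In the uptake and inactivation steps, PTGR1, which acts after HPGD and also inactivates leukotriene B4, had the largest knockdown difference of the 9 genes without IL-13 and averaged over both treatments. PTGES had a larger difference for IL-13 in shSCR cells, and PTGER2 for the knockdown among IL-13-treated cells. It was at log2 7.26 and 6.79 in mock-treated shSCR cells, 6.68 and 6.70 with IL-13, 6.06 and 6.48 in mock-treated knockdown cells, and 6.14 and 6.52 in knockdown cells with IL-13. All 4 knockdown arrays lay below all 4 shSCR arrays, in the direction opposite to HPGD. The difference over both treatments was -0.56 (95% confidence interval -0.90 to -0.22) and did not pass the adjustment (limma adjusted p = 0.229), nor did that without IL-13 (-0.76, -1.24 to -0.27, adjusted p = 0.356). With each array left out in turn the difference over both treatments ran from -0.67 to -0.44 and its adjusted p from 0.220 to 0.489. SLCO2A1, the prostaglandin uptake carrier, ranged from 4.11 to 4.70 over the 8 arrays with overlapping groups, and its IL-13 difference was 0.17 (-0.10 to 0.44, adjusted p = 0.721).

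The lipoxygenases differed little between groups. ALOX15 was at log2 4.02 and 4.41 in mock-treated shSCR cells, 4.23 and 4.39 with IL-13, 4.44 and 4.01 in mock-treated knockdown cells, and 4.19 and 4.22 in knockdown cells with IL-13. The treated and untreated arrays overlapped in both constructs, the IL-13 difference averaged over both was 0.04 (95% confidence interval -0.26 to 0.33, adjusted p = 0.960), and a 2-fold difference lay outside this interval. ALOX5, which starts leukotriene synthesis and is known mainly from leukocytes, ranged from 4.14 to 4.38, with an IL-13 difference of -0.04 (-0.22 to 0.15). Both genes lay little above the mean log2 value of 4.01 that bounds the dimmest 30% of features. At so low a signal the intervals bound the array values and do not exclude a 2-fold difference in mRNA. SERPINB3 and CCL26 rose with IL-13 on the same arrays.

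**Figure D2:**
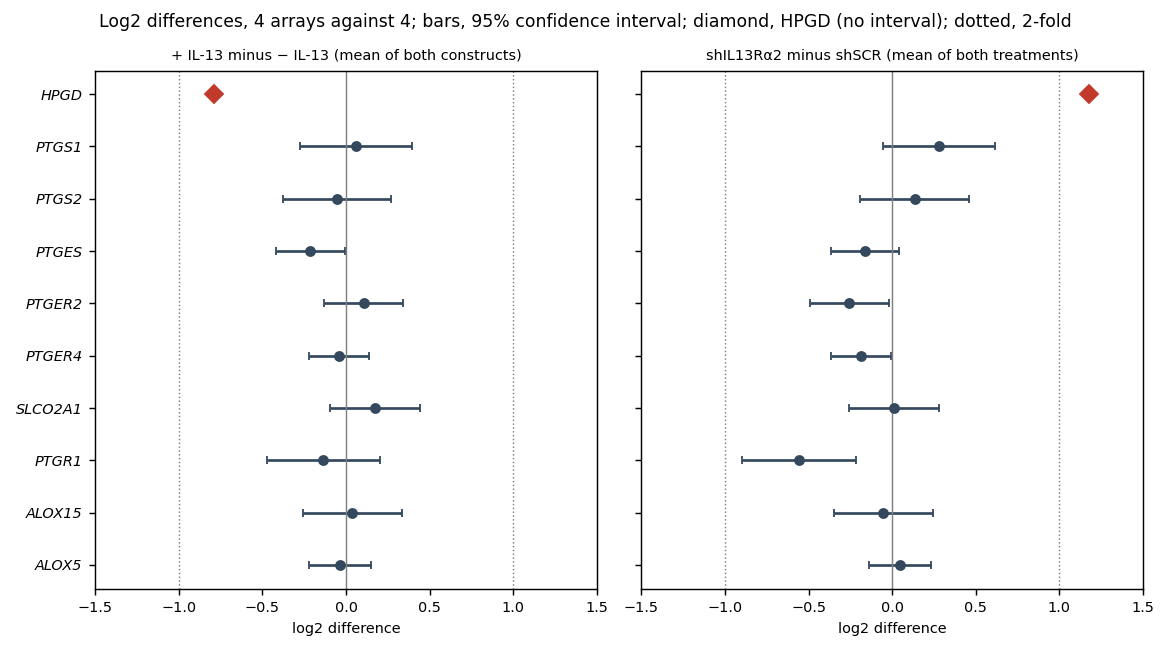
Log2 differences (horizontal axis) of the 10 genes for IL-13 averaged over both constructs (left) and for the knockdown averaged over both treatments (right), 4 arrays against 4, with 95% confidence intervals from the limma fit for the 9 tested genes and a diamond without interval for HPGD; dotted lines mark a fold of 2. HPGD lies at -0.79 and 1.18, and the intervals of the other 9 genes all lie inside the dotted lines.

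The single comparisons were counted in the same way. For IL-13 in shSCR cells 0 of 9 genes were called, beside 0.0583% of features, and 1 of 9 (PTGES) had an unadjusted p under 0.05, beside 6.79%. For the knockdown without IL-13 the counts were 0 of 9 beside 0.0652%, and 3 of 9 (PTGES, PTGER4 and PTGR1) unadjusted beside 9.51%. Knockdown cells given IL-13, set against mock-treated shSCR cells, gave 0 of 9 beside 0.154%, and 2 of 9 (PTGES and PTGR1) unadjusted beside 9.56%. In all of these the genes past the unadjusted p had lower values in the treated or knockdown cells. IL-13 in knockdown cells gave 0 of 9 beside 0.0618%, and 0 of 9 unadjusted beside 6.93%. The knockdown among IL-13-treated cells gave 0 of 9 beside 0.0515%, and 1 of 9 (PTGER2) unadjusted beside 7.07%. For the interaction, judged by adjusted p alone, 0 of 9 were called beside 0% of all features, and 0 of 9 had an unadjusted p under 0.05 beside 4.47%. The comparisons share control arrays and are not independent of each other.

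The rest of the pathways was read from 5 lists with 48 measured genes that are not members, 10 for arachidonic acid release, 10 for prostanoid synthesis, 7 for prostanoid receptors, 4 for transport and inactivation and 17 for lipoxygenases and leukotrienes. None of the 48 was called by limma in any of the 8 comparisons, and 0 had an adjusted p under 0.05. At an unadjusted limma p under 0.05 there were 5 of 48 for IL-13 over both constructs (3 higher, 2 lower) and 9 of 48 for the knockdown over both treatments (4 higher, 5 lower), shares of 10.4% and 18.8% beside 8.73% and 11.3% of all features. Their median log2 differences were 0.025 and -0.054.

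LTA4H, the hydrolase that makes leukotriene B4, came closest to the threshold. It was at log2 9.45 and 9.36 in mock-treated shSCR cells, 9.82 and 9.82 with IL-13, 9.19 and 9.16 in mock-treated knockdown cells, and 9.69 and 9.67 in knockdown cells with IL-13. All 4 treated arrays lay above all 4 untreated arrays. The difference of 0.46 (1.37-fold, 95% confidence interval 0.30 to 0.62) had an adjusted p of 0.0663. That p was 0.0267 without the dimmest 30% of features and 0.000421 with an intensity trend and robust prior, and leaving out single arrays gave 0.200 to 0.249. In its list of lipoxygenase and leukotriene genes, 1 of 17 had an unadjusted p under 0.05 in each averaged comparison, LTA4H both times (knockdown difference -0.19, adjusted p = 0.386). Of the other 16, ALOX5AP, the partner protein of ALOX5 and among the dimmest 30% of features, differed by -0.28 with the knockdown (adjusted p = 0.497) and OXER1, a receptor for oxidised fatty acids, by -0.24 with IL-13 (adjusted p = 0.590).

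In arachidonic acid release, 3 of 10 genes had an unadjusted p under 0.05 in each averaged comparison, beside 8.73% of all features for IL-13 and 11.3% for the knockdown. The secreted phospholipase gene PLA2G10, which is among the dimmest 30% of features, was at log2 3.16 and 3.48 in mock-treated shSCR cells and at 2.39 and 2.48 with IL-13, a difference of -0.88 (95% confidence interval -1.29 to -0.47, adjusted p = 0.361), and at 2.64 and 3.11 against 2.69 and 2.73 in knockdown cells, where the groups overlapped. PLA2G4A, the cytosolic phospholipase, differed by 0.25 with IL-13 (adjusted p = 0.426). PLA2G4E, which is as dim, and PLA2G3 had knockdown differences of 0.41 (adjusted p = 0.274) and 0.32 (adjusted p = 0.330). The remaining gene in both counts was PLA2G4D, with means of 5.22 in mock-treated shSCR cells and 4.93 with IL-13. In knockdown cells its means were 5.33 without IL-13 and 5.19 with it, so it was lower with IL-13 and higher with the knockdown, as HPGD was. Unlike HPGD, PLA2G4D in knockdown cells with IL-13 was not above its level in mock-treated shSCR cells, and the arrays of those groups overlapped.

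Of the 10 synthesis genes, 0 had an unadjusted p under 0.05 with IL-13 and 2 with the knockdown, AKR1B1, an aldo-keto reductase that can make prostaglandin F2α (-0.32, adjusted p = 0.281) and CBR1, a carbonyl reductase acting on prostaglandin E2 (-0.21, adjusted p = 0.430). HPGDS, among the dimmest 30% of features, and PRXL2B were nearest for IL-13 (0.15, adjusted p = 0.739, and -0.16, adjusted p = 0.787). Of the 7 receptors 1 had an unadjusted p under 0.05 with IL-13 and 2 with the knockdown. TBXA2R for thromboxane and PTGFR for prostaglandin F2α, the latter among the dimmest 30% of features, had knockdown differences of -0.29 (adjusted p = 0.334) and -0.30 (adjusted p = 0.375), with the 4 knockdown arrays below the 4 shSCR arrays in both genes, and PTGER1 had an IL-13 difference of 0.20 (adjusted p = 0.548). Of the 4 genes of transport and inactivation 0 had an unadjusted limma p under 0.05 with IL-13 and 1 with the knockdown. The exporter gene ABCC4 had a knockdown difference of 0.32 (adjusted p = 0.429), SLCO3A1 one of -0.17 (adjusted p = 0.512) and PTGR2, a relative of PTGR1, one of -0.15 (adjusted p = 0.494).

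**Figure D3:**
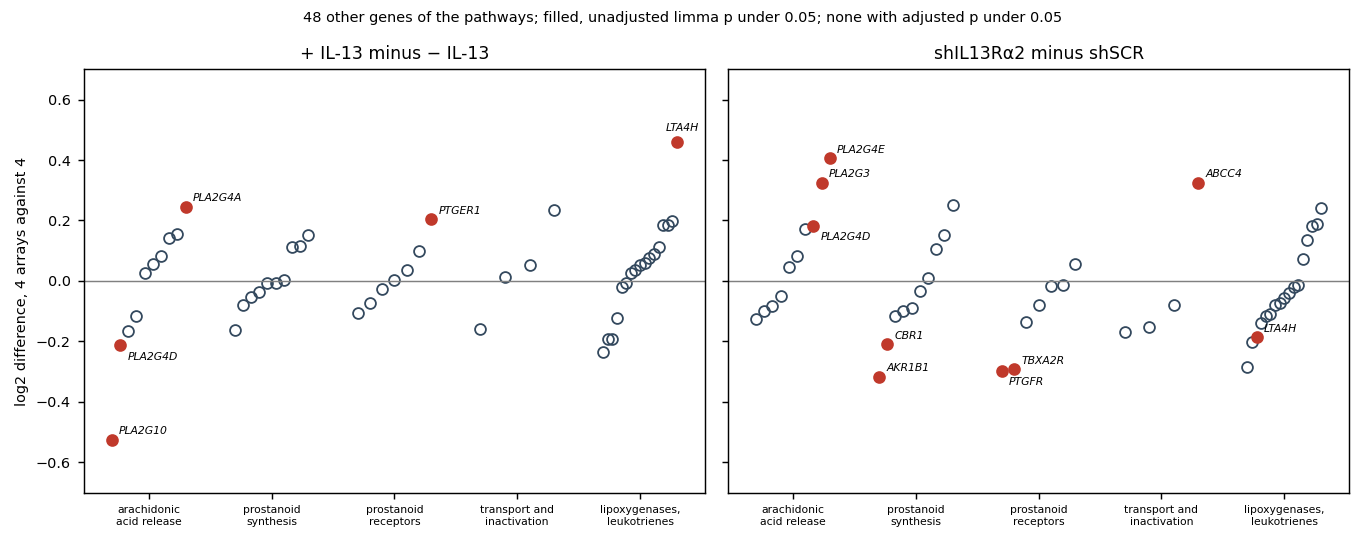
Log2 differences (vertical axis) of the 48 other pathway genes for IL-13 averaged over both constructs (left) and the knockdown averaged over both treatments (right), grouped by list along the horizontal axis and sorted within a list; filled points have an unadjusted limma p under 0.05 and are named. The values run from -0.52 (PLA2G10) to 0.46 (LTA4H) on the left and from -0.32 (AKR1B1) to 0.41 (PLA2G4E) on the right.

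The array profile of HPGD was shared by genes outside these pathways. Pearson's r with HPGD over the 8 arrays was computed for 724 features with a symbol and a range of at least 1 on the log2 scale, as a description of points that fall in 4 groups, and 26 had an r above 0.9 and 11 below -0.9. The 5 highest were CASP14, a protease of keratinocyte cornification (0.991), EPB41L4A (0.988), C3orf57 (0.988), LPHN3, an adhesion receptor gene (0.973), and CEACAM5, which encodes carcinoembryonic antigen (0.973). CASP14 was at log2 6.41 and 5.94 in mock-treated shSCR cells, 4.59 and 4.88 with IL-13, 8.67 and 8.84 in mock-treated knockdown cells, and 7.17 and 6.96 in knockdown cells with IL-13, the same order of groups as HPGD over a wider span. The 5 lowest were MIR221, a microRNA gene (-0.983), MYH15 (-0.982), TNC, which encodes the matrix protein tenascin C (-0.967), ARL14 (-0.957) and TIMP1, an inhibitor of metalloproteinases (-0.951). The other members had r between -0.74 (PTGER2) and 0.40 (ALOX5), and all had smaller ranges than HPGD.

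**Figure D4:**
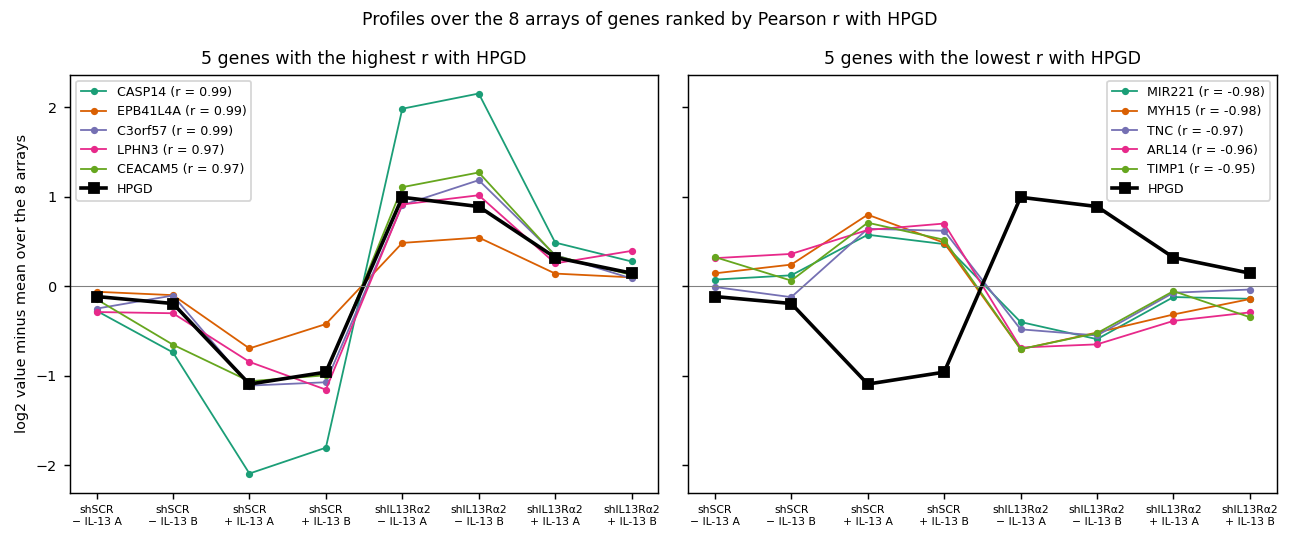
Log2 value minus the gene's mean over the 8 arrays (vertical axis) for HPGD (black squares) and the 5 genes with the highest (left) and lowest (right) Pearson's r with it, on each array along the horizontal axis. CASP14 spans the widest range, and the 5 genes on the right are highest in shSCR cells with IL-13, where HPGD is lowest at 5.96 and 6.10.

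Among markers of other cell types, PECAM1, known as an endothelial marker, moved with HPGD. It was at log2 8.33 and 8.08 in mock-treated shSCR cells, 7.71 and 7.83 with IL-13, 8.82 and 8.82 in mock-treated knockdown cells, and 8.14 and 8.27 in knockdown cells with IL-13 (r with HPGD 0.95). Its adjusted p was 0.0938 for IL-13 and 0.0615 for the knockdown. Of the other 2 endothelial markers, CDH5 had group means in the same order as HPGD within a narrow span, at 4.50, 4.47, 4.72 and 4.51 in that order of groups, with overlapping arrays (knockdown difference 0.13, adjusted p = 0.659), and VWF, at 3.90, 3.81, 3.87 and 3.82, did not. The part of these markers in the HPGD values was not tested. Of the 7 epithelial markers 1 had an adjusted p under 0.05, the luminal keratin KRT18 with the knockdown. KRT18 has 2 features on the array, and the brighter one fell by 0.60 over both treatments (adjusted p = 0.0454, 1.51-fold) while the other differed by -0.30 (adjusted p = 0.327). Of the 5 leukocyte, 5 mast cell and eosinophil, 3 fibroblast and 2 platelet markers 0 had an adjusted p under 0.05 in either averaged comparison. Of the leukocyte markers, PTPRC lay between 2.27 and 2.71 and CD14 between 5.10 and 5.71. CD68, a macrophage marker that other cells also express, lay between 6.52 and 7.39, with all 4 knockdown arrays below all 4 shSCR arrays (-0.47, adjusted p = 0.262). Its part in the knockdown differences of HPGD and PTGR1 was not tested.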

How the data were processed

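The authors deposited log2 expression values that Affymetrix Expression Console (version 1 per the labels) made by RMA: background correction, quantile normalization over the arrays and summarising the probes of a gene. RMA values are relative, so levels were compared only within a gene. The table held 33297 features, of which 4156 controls were left out, and the 29141 others were tested without a signal filter. Group means over all 8 arrays were fitted with limma 3.58.1 in R 4.3.3 (4 residual and 3.86 prior degrees of freedom), and p-values were adjusted by Benjamini-Hochberg over all tested features. A gene was called at adjusted p under 0.05 and fold above 2 (the interaction by adjusted p alone). The code was tested on simulated data. The members and lists were chosen with earlier results of these data known. From each pathway list the 2 genes with the smallest p in each averaged comparison were named, and PLA2G4D was named as the remaining gene in the counts of its list. PLA2G4B was not matched. The lowest and highest r with HPGD chose the similar genes. Columns were assigned to groups by construct and treatment in their headings. The number of arrays limits the precision, with a median SD between arrays of a group of 0.143.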

Additional observations from a re-analysis of the deposited data

How the results depend on the processing

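The count of called genes among the 9 members other than HPGD was 0 in all 8 comparisons under every alternative run: the methods' analysis of variance (with and without adjustment, not for the interaction), limma without adjustment, limma on the 4 arrays compared (not for the averaged comparisons or the interaction), a fold threshold of 1.5 or none, leaving out the dimmest 30% of features, an intensity trend with a robust prior, a further median shift or quantile normalization, and leaving out each array in turn. Several of these settings left little to be called among all features: in the 5 single comparisons the analysis of variance after adjustment called 0 features, limma on the 4 arrays compared 0 to 2 and limma with an array left out 0 to 38, against 15 to 45 with all arrays, so a count of 0 among 9 genes says little there. Where the 2-fold rule was kept, it was enough to hold the count at 0, because no difference of the 9 genes reached 2-fold. The largest was that of PTGR1 for the knockdown without IL-13, at log2 -0.76 with all arrays and at most -0.99 with 1 array left out. In the runs with adjustment the adjusted p held the count at 0 as well. The smallest adjusted p among the 9 over the alternative settings was 0.0617 (PTGR1, knockdown averaged, trend and robust prior). Among all features, the trend and robust prior raised the number with an adjusted p under 0.05 from 68 to 254 for IL-13 averaged and from 130 to 655 for the knockdown averaged, and AKR1B1 then had an adjusted p of 0.0487. The analysis of variance after adjustment called 8 and 3 features in those comparisons, against 27 and 22. With each array left out the HPGD differences ran from -0.83 to -0.75 for IL-13 averaged and from 1.13 to 1.22 for the knockdown averaged. Their sign could not have changed, because no array of one group overlapped another group. HPGD was also selected on these same arrays, so these ranges are a description only. Under the analysis of variance after adjustment, CCL26 (adjusted p = 0.396) and IL13RA2 (adjusted p = 0.662 for IL-13 and 0.517 for the knockdown) were no longer called in the averaged comparisons, where the other factor enters that test's error. No paired analysis was possible because the headings of the table carry no replicate number that matches the sample labels.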
